A study of Mus musculus with 7 samples.

Results

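Neutrophil granule and alarmin genes were followed in brown fat of C57BL/6J males aged 3 days. The mice were either knockouts (KO) for Gyk, which encodes glycerol kinase, or wild type. The genes had been listed by name: S100a8, S100a9, Camp, Ngp, Ltf, Lcn2, Chil3, Retnlg, Mpo and Elane, and all their probe sets on the array were taken. Of these 10 genes, 9 were measured, by 1 probe set each, among 18193 genes named on the array. A further probe set is paired with both Chil3 and its neighbour Chil4, so that 10 probe sets were followed in all. Retnlg is paired with 0 probe sets in the probe table used here and is not analysed. There were 4 KO arrays (replicates 1 to 4) and 3 wild-type arrays (replicates 1, 3 and 4), each of the total RNA of 1 sample, with a signal intensity for each probe set. Which cells carry the deletion, and whether animals were pooled, the sources used here do not give.

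Neutrophils carry their proteins in granules that form in sequence as the cell matures in the bone marrow. Azurophil granules come first and hold myeloperoxidase (Mpo) and neutrophil elastase (Elane), and specific granules follow with lactoferrin (Ltf), the cathelicidin antimicrobial peptide (Camp), neutrophilic granule protein (Ngp) and lipocalin 2 (Lcn2). S100A8 and S100A9 form the calcium-binding heterodimer calprotectin, which fills the cytosol of neutrophils and acts as an alarmin when it is released from cells. Chil3 encodes Ym1, a secreted chitinase-like protein of mouse neutrophils and macrophages, and Retnlg encodes a resistin-like protein of mouse neutrophils. Lcn2 is also made by fat cells. In a whole tissue, a change in the number of cells of a type and a change in the RNA per cell cannot be told apart.

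Lcn2, Mpo, Elane and Retnlg lie on chromosomes 2, 11, 10 and 16, and the other listed genes on chromosomes 3 and 9. S100a8 and S100a9 are neighbours on chromosome 3, with 0 protein-coding genes between them, as are Chil3 and Chil4 on the same chromosome. Camp, Ngp and Ltf lie on chromosome 9 in that order, with 8 and 20 protein-coding genes between neighbours (RefSeq, GRCm38.p6). The promoter windows of Chil3, Lcn2, Ngp and Ltf are shown because these were the 4 genes whose KO arrays all read above all wild-type arrays. Each window runs from 250 bases before to 50 bases after the gene's start (RefSeq, GRCm38.p6), 5′ to 3′ on the gene's strand. Capitals mark matches to a C/EBP motif, spelled TTGCNNAA, or to an inverted steroid receptor repeat, spelled ACANNNTGT, searched on both strands. C/EBP factors drive granule genes during granulocyte development.
Chil3, chr3:106167515-106167814, minus strand: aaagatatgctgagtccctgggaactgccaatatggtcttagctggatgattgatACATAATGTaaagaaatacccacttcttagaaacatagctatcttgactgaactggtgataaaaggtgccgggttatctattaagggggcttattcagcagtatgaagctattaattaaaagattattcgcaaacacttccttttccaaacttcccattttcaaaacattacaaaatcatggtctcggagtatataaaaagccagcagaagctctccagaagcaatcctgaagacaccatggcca
Lcn2, chr2:32387690-32387989, minus strand: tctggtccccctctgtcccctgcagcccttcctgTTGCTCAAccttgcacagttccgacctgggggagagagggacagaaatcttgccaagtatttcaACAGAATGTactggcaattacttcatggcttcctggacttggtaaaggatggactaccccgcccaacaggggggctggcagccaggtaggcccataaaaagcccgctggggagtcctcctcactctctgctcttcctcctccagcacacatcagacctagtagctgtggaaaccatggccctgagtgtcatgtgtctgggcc
Ngp, chr9:110419558-110419857, plus strand: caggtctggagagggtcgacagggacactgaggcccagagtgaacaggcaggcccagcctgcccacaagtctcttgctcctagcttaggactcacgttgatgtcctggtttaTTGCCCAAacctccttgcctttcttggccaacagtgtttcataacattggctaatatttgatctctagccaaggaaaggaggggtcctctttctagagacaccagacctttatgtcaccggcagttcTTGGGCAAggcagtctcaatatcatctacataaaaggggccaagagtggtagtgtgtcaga
Ltf, chr9:111019042-111019341, plus strand: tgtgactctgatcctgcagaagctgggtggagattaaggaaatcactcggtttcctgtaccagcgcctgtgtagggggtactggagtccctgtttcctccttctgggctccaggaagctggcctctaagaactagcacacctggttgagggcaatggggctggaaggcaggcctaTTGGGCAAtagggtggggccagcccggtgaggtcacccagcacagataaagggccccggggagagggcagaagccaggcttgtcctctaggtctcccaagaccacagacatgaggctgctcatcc

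Over all 10 listed genes, 5 promoter windows held the C/EBP motif, those of S100a9, Ngp, Ltf, Lcn2 and Retnlg, as did 10.8% of 32851 promoter windows of this length. The Ngp window held 2 matches, 138 and 11 bases before the start. The steroid receptor repeat was in 3 of the 10 windows, those of S100a8, Lcn2 and Chil3, and in 6.85% of all windows. A PU.1 core, spelled GAGGAA, was in 5 of the 10 and in 28.3% of all. The motifs were chosen with results of these data known, and a match describes letters in the window and not a site in use.

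The arrays were alike in scale, with medians between 131.5 and 154 signal units, and their number limits the precision of every value. Gyk itself is paired with 0 probe sets in the probe table and is not analysed here, so genotypes are taken from the labels. Brown fat markers were bright, with Ucp1 at 26886.6 signal units or more and Adipoq at 21188.8 or more on each of the 7 arrays, and 0 of 11 tested markers passed the limma test. Of these, Cox7a1, Prdm16, Elovl3 and Adipoq had the smallest p (adjusted p between 0.394 and 0.826). The array labelled KO replicate 2, named by its label throughout, stood apart from the other KO arrays. Its score on the first principal component (35.3% of the variance) was -13.8, against 33.4 to 35.7 for the other KO arrays and -33.3 to -23 for the wild-type arrays. Xist, which coats the inactive X chromosome, read 893 there with 1 probe set, against 13.1 or less on each other array, and 2756.7 with another, against 182.8 to 272.7. The label of every sample is male, and Y-linked transcripts were present there too: Eif2s3y read 1251.5, against 1210 to 1565.8 on the other arrays, and Uty 475.3, against 697.3 to 854. The accessions fall into 2 runs, called deposit blocks here: KO replicates 1 and 2 with wild-type replicate 1 in the first, and KO replicates 3 and 4 with wild-type replicates 3 and 4 in the second. The labels do not say whether these were separate experiments. Results are therefore given with all arrays, without KO replicate 2, and within each block.

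KO was compared with wild type to ask which transcripts differ when glycerol kinase is lost. Values were compared as log2(signal + 30.6), with limma across 27022 probe sets that passed a filter on low signal, and a probe set was called changed at a Benjamini-Hochberg adjusted p under 0.05. By this test 431 probe sets, 1.59% of those tested, were called, and 0.951% were called higher in KO. Of the 9 granule and alarmin genes on the array, 8 passed the filter and all 8 had a positive log2 difference. Among all 13102 tested genes, 6354 had a positive difference by their brightest probe set. The filter used the mean over all arrays, so high KO values helped a gene to pass. Camp, at 44.6 to 141.5 signal units in wild type, lay near the limit of 88.9 there. On the wild-type arrays alone its mean log2 value was just under the limit, so Camp passed only through its KO arrays. The counts and the median over the 8 genes, and the counts over the 9 tested probe sets, include Camp and depend on its KO values to that extent. Elane, under the filter, averaged 57.9 in KO and 65.3 in wild type. Only Chil3 of the 8 rose by the test. At an unadjusted p under 0.05 there were 5 of the 8, beside 4465 of all tested probe sets. The median log2 difference over the 8 genes was 0.60, beside -0.01 over the brightest probe sets of all 13102 tested genes. For 4 of the 8, Chil3, Lcn2, Ngp and Ltf, every KO array read above every wild-type array, as did 7.48% of all tested probe sets. The plot of signals by array shows these values.

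**Figure D1:**
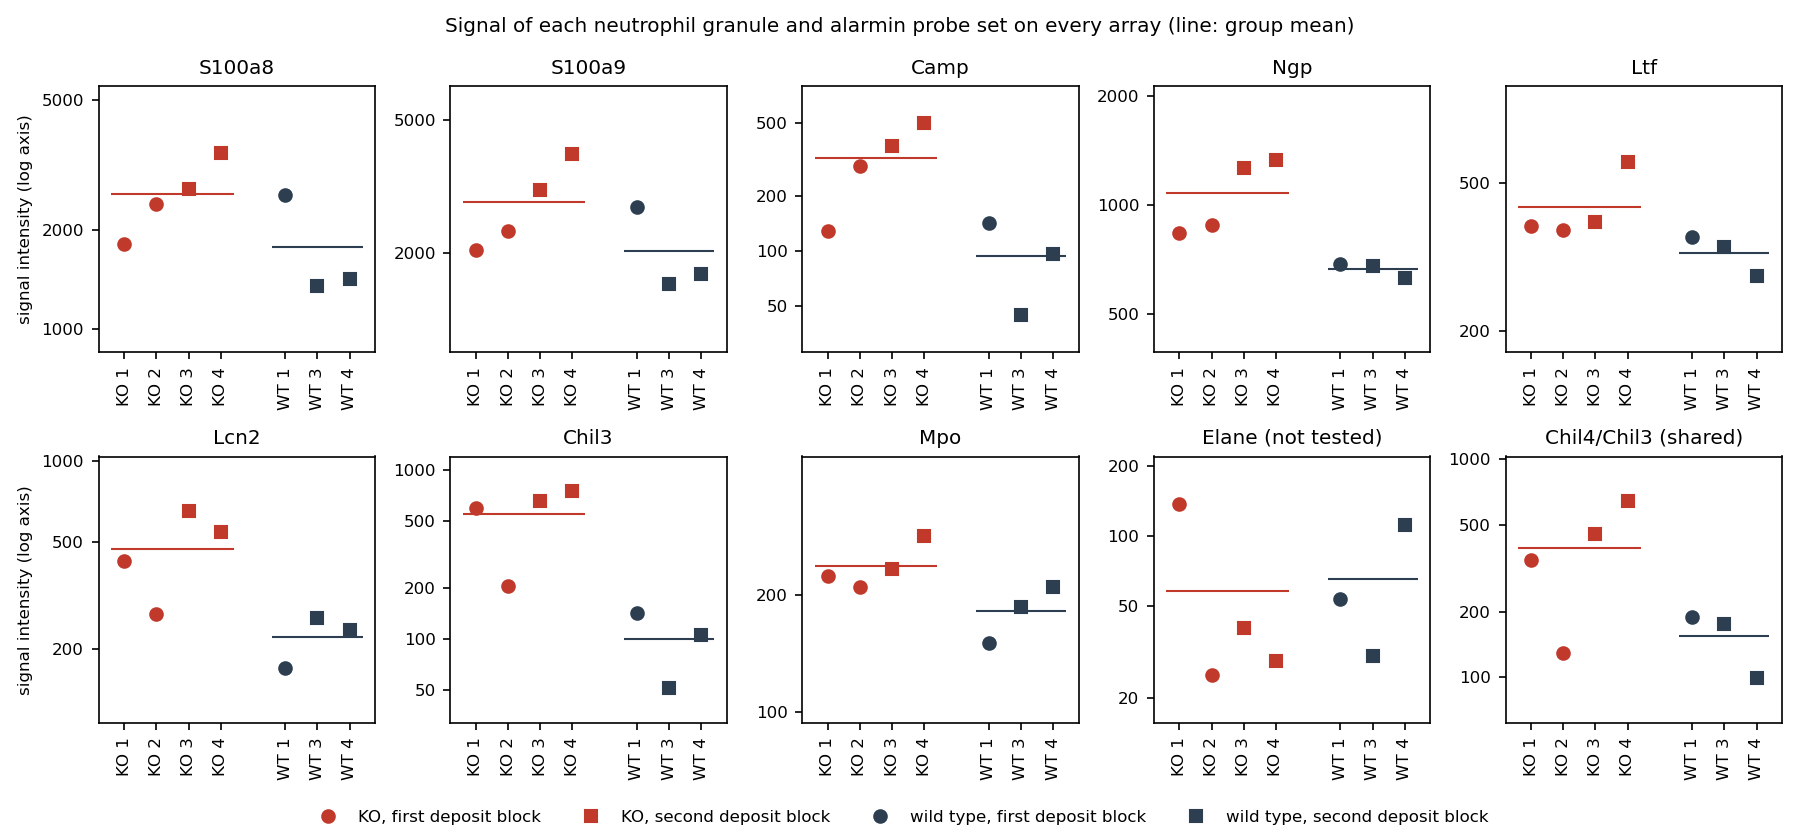
Signal intensity (log axis, 1 panel per probe set) on each of the 4 KO and 3 wild-type arrays, with circles for the first and squares for the second deposit block and a line at each group mean. Chil3, Lcn2, Ngp and Ltf have all KO points above all wild-type points, while S100a8 and S100a9 have wild-type replicate 1 (2574 and 2730 signal units) among the KO points.

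Chil3, which encodes the secreted chitinase-like protein Ym1, had the largest difference of the 8 genes. It read 591.3, 205.7, 654.8 and 749.2 signal units on KO replicates 1 to 4, against 141.7, 51 and 105.5 on wild-type replicates 1, 3 and 4. The lowest KO value was that of KO replicate 2, and the groups did not overlap. The mean was 550 ± 239 in KO (SD, n = 4) and 99.4 ± 45.7 in wild type (SD, n = 3), a log2 difference of 2.09 ± 0.39 (SE, limma adjusted p = 0.034). On this scale, which understates changes of dim probe sets, that is 4.26-fold. Without KO replicate 2 the log2 difference was 2.48 (adjusted p = 0.00087), and with the deposit block as a covariate Chil3 also passed. The call was lost when any other array was left out (adjusted p between 0.0782 and 0.131, log2 difference between 1.79 and 2.33). It was also lost without the filter on low signal (adjusted p = 0.0723) and without the mean-variance trend (adjusted p = 0.0996).

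The probe set shared by Chil3 and Chil4 moved in the same direction on 3 of the 4 KO arrays. It read 343.8, 129.4, 455 and 644.7 on KO replicates 1 to 4, against 188.6, 175.1 and 98.6 on wild-type replicates 1, 3 and 4. KO replicate 2 lay inside the wild-type range and the other KO arrays above it. The log2 difference was 1.06 ± 0.41 (adjusted p = 0.226). It passed without KO replicate 2 (1.47, adjusted p = 0.0104). Chil4, a chitinase-like protein close to Ym1, also has a probe set of its own, which averaged 95.9 in KO and 125 in wild type (log2 difference -0.29, adjusted p = 0.543).

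Lcn2, the iron-siderophore carrier lipocalin 2, read 424.8, 268.3, 647.3 and 545.4 in KO, against 170, 260.5 and 235.5 in wild type. All KO arrays were above all wild-type arrays, but KO replicate 2 only just. The mean was 471 ± 163 in KO and 222 ± 46.7 in wild type, a log2 difference of 0.94 ± 0.26, 1.92-fold, and did not pass with all arrays (adjusted p = 0.102). It passed once KO replicate 2 was left out (1.17, adjusted p = 0.00859) and once the deposit block was a term (1.05, adjusted p = 0.0286). In both blocks the KO mean was higher, by 0.88 in the first and 1.17 in the second.

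Ngp, a cystatin-like protein of specific granules, read 836.5, 880.3, 1272.5 and 1335.3 in KO, against 687.1, 680.4 and 628.6 in wild type. The wild-type arrays lay close together and below all KO arrays, and the KO arrays fell into a lower pair from the first block and a higher pair from the second. The mean was 1081 ± 259 in KO and 665 ± 32 in wild type, a log2 difference of 0.65 ± 0.17 (adjusted p = 0.0954). Ngp passed without KO replicate 2 (0.73, adjusted p = 0.0322) and with a deposit block term (0.70, adjusted p = 0.0455).

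Camp, the precursor of the mouse cathelicidin, read 128.4, 291.5, 375.3 and 497.8 in KO, against 141.5, 44.6 and 95.9 in wild type. KO replicate 1 lay inside the wild-type range, and the other KO arrays above it. The mean was 323 ± 155 in KO and 94 ± 48.5 in wild type, a log2 difference of 1.46 ± 0.39 (adjusted p = 0.0952), so the second largest difference of the 8 genes did not pass. Leaving out KO replicate 2 left the difference at 1.46 (adjusted p = 0.0782). The value of KO replicate 2 was 82.3% of the way from the wild-type mean to the mean of the other KO arrays for Camp, and 18.8% for Chil3 and 14.6% for Lcn2.

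Ltf, the iron-binding protein lactoferrin, read 383.4, 372.6, 391.2 and 568.4 in KO, against 357.3, 335.3 and 279.9 in wild type. The groups did not overlap, but the gap between them was 15.3 signal units and KO replicate 4 stood above the other 3. The log2 difference was 0.36 ± 0.18 and did not pass (adjusted p = 0.345).

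S100a8 and S100a9, the alarmin pair, did not separate the genotypes. S100a8 read 1815, 2409.9, 2686.6 and 3460.3 on KO replicates 1 to 4, against 2574.1, 1355.2 and 1419.5 on wild-type replicates 1, 3 and 4. S100a9 read 2034.5, 2326, 3074.5 and 3937.1 in KO, against 2730, 1611.6 and 1725.7 in wild type. Both genes put the 7 arrays in the same order, from wild-type replicate 3 at the low end to KO replicate 4 at the high end, and in both, wild-type replicate 1 read above KO replicates 1 and 2. The log2 difference was 0.56 ± 0.24 for S100a8 (adjusted p = 0.286) and 0.48 ± 0.23 for S100a9 (adjusted p = 0.344).

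Within the deposit blocks the alarmin pair ran in opposite directions. In the second block the log2 difference was 1.12 for S100a8 (adjusted p = 0.0157) and 1.05 for S100a9 (adjusted p = 0.018), from 2 KO and 2 wild-type arrays. In the first block it was -0.30 and -0.32, from 2 KO arrays and 1 wild-type array, and neither passed (adjusted p = 1). The genotype difference in the second block minus that in the first was 1.41 ± 0.29 for S100a8 (unadjusted p = 0.00104) and 1.37 ± 0.25 for S100a9 (unadjusted p = 0.000526), and neither passed over all probe sets (adjusted p = 1, limma interaction). The same split, KO below wild type in the first block and above in the second on every array, was seen in 3.47% of tested probe sets.

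Camp, Ngp, Ltf, Lcn2 and Chil3 also had the larger difference in the second block, and a positive one in the first. Mpo had 0.34 in the second and 0.45 in the first. The second-block difference passed for Camp (2.25, adjusted p = 0.0184), Ngp (0.96, adjusted p = 0.0184), Lcn2 (1.17, adjusted p = 0.0245), Chil3 (2.79, adjusted p = 0.00635) and the probe set shared with Chil4 (1.81, adjusted p = 0.0258). With S100a8 and S100a9 that made 7 of 9 tested probe sets, where 2.69% of all tested probe sets passed, 1.3% higher in KO. The 7 are not separate results. Chil3 is read by its own and by the shared probe set, and S100a8 and S100a9 varied together (Pearson r = 0.967 within genotypes over 7 arrays). In the first block limma called 0 of the 9 and 0% of all tested probe sets (1 of 9 and 1024 of all at an unadjusted p under 0.05), and the log2 differences were 0.40 for Camp, 0.31 for Ngp and 1.15 for Chil3. The interaction with the block passed for 0 of the 9 (adjusted p = 1 for each) and for 0 of all 27022. At an unadjusted p under 0.05 there were 6 of the 9 and 897 of all. Its unadjusted p was 0.0164 for Camp, 0.0268 for Ngp, 0.0425 for Chil3 and 0.482 for Lcn2.

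**Figure D2:**
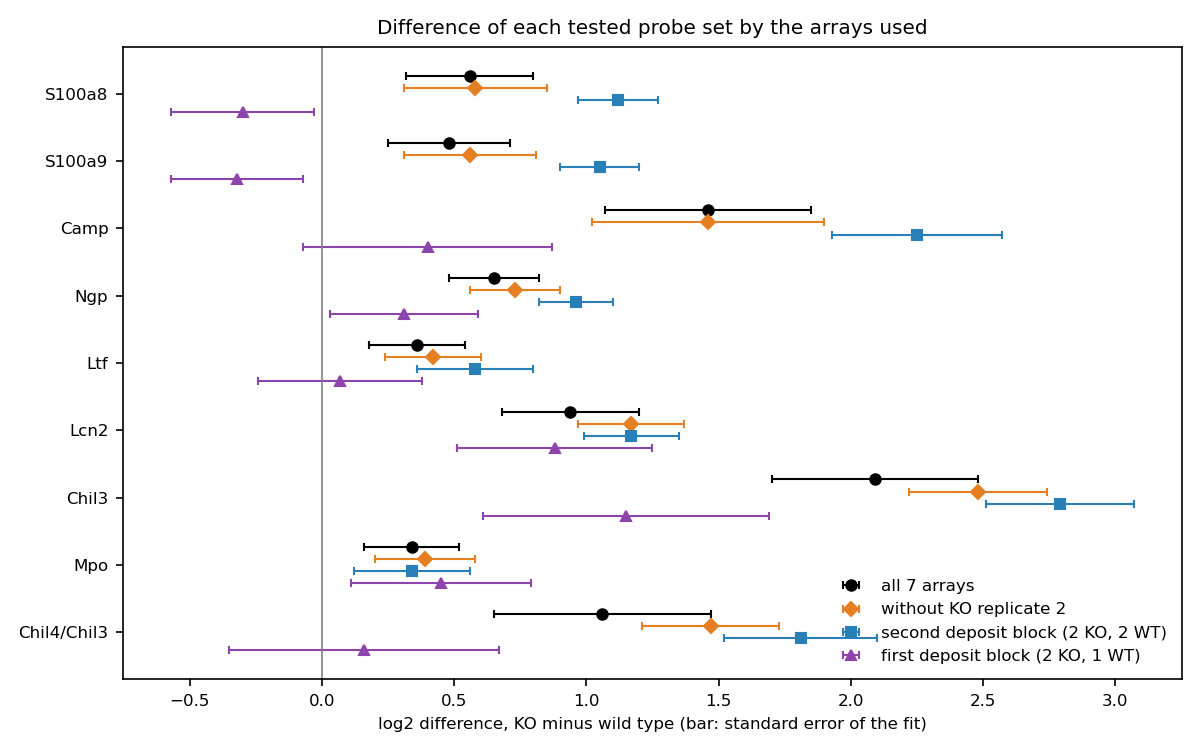
Log2 difference, KO minus wild type, with its standard error (horizontal axis) for each tested probe set, fitted on all 7 arrays, without KO replicate 2, on the second deposit block and on the first. S100a8 and S100a9 lie above 1 in the second block and near -0.3 in the first, while Lcn2 and Mpo stay above 0 in all 4 fits with similar values.

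Of the azurophil granule genes, Mpo did not pass and Elane was too dim to test. Mpo, the myeloperoxidase gene, read 223.5, 209.5, 233.7 and 283.4 in KO, against 150.1, 186.2 and 209.9 in wild type. KO replicate 2 fell just inside the wild-type range and the other 3 above it, with a log2 difference of 0.34 ± 0.18 (adjusted p = 0.392). Elane, the neutrophil elastase gene, read 137.3, 25.1, 40.3 and 28.9 in KO, against 53.7, 30.3 and 111.9 in wild type. Its groups overlapped, and it was under the filter and so not tested. When no filter was used its log2 difference was -0.19 (adjusted p = 0.926).

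Without KO replicate 2, 4 of the 9 tested probe sets passed, those of Chil3, Lcn2, Ngp and the one shared by Chil3 and Chil4, all higher in KO. In that fit 7.35% of all tested probe sets passed, 3.14% higher in KO. With the deposit block as a covariate Chil3, Lcn2 and Ngp passed, where 2.34% of all passed, 1.25% higher in KO. Camp, S100a8, S100a9, Ltf and Mpo passed in neither.

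Other neutrophil genes were counted as a list. Of 37 genes of neutrophil granules, surface and secretion, 21 were tested, 0 passed in either direction, 13 were higher and 8 lower in KO, and the median log2 difference was 0.02. Clec4d, a lectin receptor of myeloid cells, averaged 225 ± 47.1 in KO and 117 ± 12.5 in wild type (log2 difference 0.78, adjusted p = 0.0832) and passed without KO replicate 2 (adjusted p = 0.0326). Fpr2, a formyl peptide receptor, averaged 311 in KO and 222 in wild type (adjusted p = 0.337). Anxa1, an annexin that limits neutrophil recruitment, averaged 2468 in KO and 3475 in wild type (log2 difference -0.50, adjusted p = 0.085), and Wfdc21 averaged 557 in KO and 900 in wild type (adjusted p = 0.257). Both passed as lower without KO replicate 2. Wfdc21 also did so with a deposit block term (adjusted p = 0.0447).

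The summed signal of the 21 tested neutrophil genes ran from 17690 to 23638 in KO and from 17370 to 22660 in wild type, so the groups overlapped. Much of each sum was haptoglobin (Hp), at 7997.9 to 13153.7 in KO and 7033 to 11208.4 in wild type. Hp and Orm1 are also among the acute-phase genes, so the list is not particular to neutrophils. A further 10 genes of the list were under the filter. Among these, the azurophil protease genes Prtn3 and Ctsg read at most 132.6 and 59 on any array. The neutrophil chemokine receptor gene Cxcr2 read at most 47.7 and Cd177 at most 124.5. Pglyrp1, a peptidoglycan recognition protein of specific granules, read 79, 75.7, 39.2 and 120.7 in KO, against 15.4, 28.7 and 20.5 in wild type, without overlap. It was untested for low signal and is named because of its values.

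**Figure D3:**
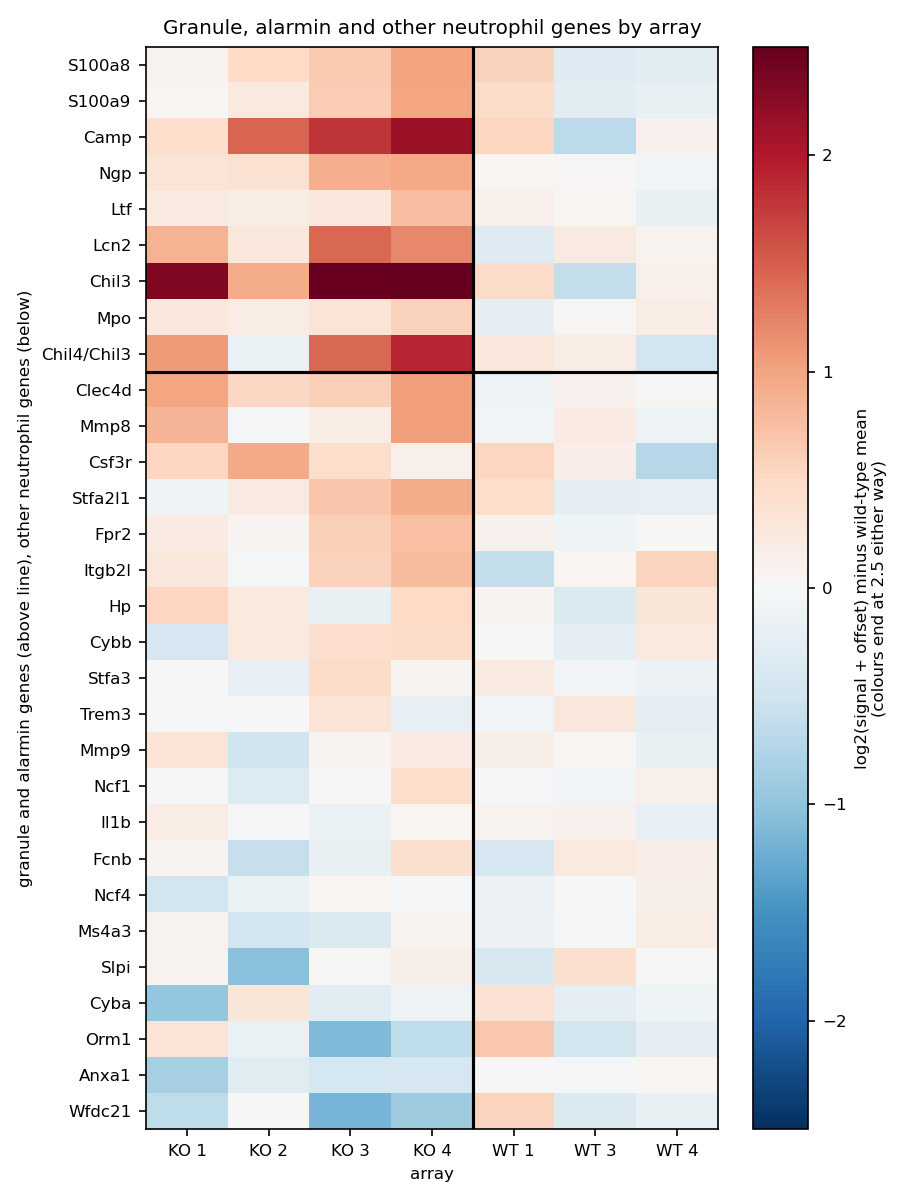
Log2 value minus the wild-type mean (colour) on each array for the 9 tested probe sets of the granule and alarmin genes (above the line) and 21 other tested neutrophil genes (below it), with KO arrays left of wild-type arrays. The upper block is mostly red in KO, while the lower block holds 13 genes higher and 8 lower in KO by the fit.

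Regulators of granulocyte development were measured for 12 of 13 genes, of which 9 were tested. Beside 149 of all 13102 tested genes, 1 of these 9 rose. That gene, Cebpd, a C/EBP transcription factor that is also induced by glucocorticoids, averaged 1656 ± 502 in KO and 621 ± 40.2 in wild type (log2 difference 1.33, adjusted p = 0.0217). Cebpb averaged 13870 in KO and 12260 in wild type (adjusted p = 0.372), Csf3r, the receptor of granulocyte colony-stimulating factor, 198 in KO and 136 in wild type (adjusted p = 0.443), and Spi1, which encodes PU.1, 232 in KO and 289 in wild type (adjusted p = 0.549). Gfi1, a transcription factor needed for granulocyte development, was under the filter and read at most 41.9 on any array.

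Of 9 other tested genes of the S100 family 0 passed, 2 were higher and 7 lower in KO, with a median of -0.05. S100a16 averaged 1837 ± 467 in KO and 3190 ± 526 in wild type (log2 difference -0.80, adjusted p = 0.0572). Every KO array read below every wild-type array, as for 1096 of all 13102 tested genes. S100a16 passed as lower without KO replicate 2 (adjusted p = 0.0035) and with a deposit block term (adjusted p = 0.0351). S100a4 averaged 535 in KO and 246 in wild type (0.99, adjusted p = 0.0982), S100b 2379 in KO and 3415 in wild type (adjusted p = 0.376) and S100a1 13490 in KO and 12590 in wild type (adjusted p = 0.697). S100b passed as lower with a deposit block term (adjusted p = 0.0453).

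Of 12 tested receptors and partners of the alarmins 0 passed, with 6 higher and 6 lower in KO (median 0.01). Tlr4, a receptor of S100A8 and S100A9, averaged 150 in KO and 206 in wild type (adjusted p = 0.341), and Ager, which encodes the receptor RAGE, 166 in KO and 104 in wild type (adjusted p = 0.309). Bsg averaged 15000 in KO and 18470 in wild type (adjusted p = 0.26). Of the acute-phase genes 0 of 9 passed (median 0.09). The values were 1892 in KO and 1300 in wild type for Cp, the ceruloplasmin gene (adjusted p = 0.208), and 80.1 in KO and 129 in wild type for the chemokine gene Ccl2 (adjusted p = 0.34). Haptoglobin (Hp) averaged 11150 in KO and 9242 in wild type (adjusted p = 0.545) and Orm1 1443 in KO and 1886 in wild type (adjusted p = 0.626).

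Of 15 protease, peroxidase, cystatin, chitinase-like and resistin-like relatives of the granule genes, 5 were tested, with 0 past the test, 2 higher and 3 lower. The 3 lower were Retn, Retnla and Chil4. Retn, which encodes the fat cell hormone resistin in the mouse, averaged 7062 in KO and 9703 in wild type (log2 difference -0.49, adjusted p = 0.18), and Retnla 118 in KO and 247 in wild type (-1.07, adjusted p = 0.264). Both passed as lower without KO replicate 2 (adjusted p = 0.00471 and 0.0292). Cstb, the cystatin B gene, averaged 11050 in KO and 10320 in wild type (adjusted p = 0.706).

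Markers of other blood cells were measured beside these. Of 15 tested macrophage markers 0 passed, 8 were higher and 7 lower in KO (median 0.07). Their summed signal ran from 13699 to 22304 in KO and from 15123 to 16692 in wild type. Lyz1 and Lyz2, the lysozyme genes, are counted in this list but are not particular to macrophages. They averaged 2831 and 2594 in KO, against 1844 and 1757 in wild type (adjusted p = 0.11 and 0.195). Both passed without KO replicate 2 (adjusted p = 0.0379 and 0.0181). For both, every KO array read above every wild-type array, as for 4 of the 15 markers and 7.48% of all tested probe sets. Cd163 averaged 481 in KO and 337 in wild type (adjusted p = 0.296) and Cd68 292 in KO and 383 in wild type (adjusted p = 0.374). The defining macrophage markers Adgre1 and Csf1r read at least 623.9 and 2715.4 on every array. Adgre1 averaged 913 in KO and 1124 in wild type (adjusted p = 0.413), and Csf1r 4241 in KO and 3936 in wild type (adjusted p = 0.905).

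Of 7 tested lymphocyte, mast cell and eosinophil markers 0 passed, 2 were higher and 5 lower (median -0.44), with a summed signal of 5433 to 9548 in KO and 10030 to 11822 in wild type. Apart from the B cell gene Cd79a these were mast cell genes, which made up nearly all of the sum. The T cell and eosinophil genes with a probe set were under the filter. The mast cell protease genes Cma1 and Mcpt4 averaged 2712 and 727 in KO, against 3846 and 1014 in wild type (adjusted p = 0.135 and 0.3), Cpa3 2364 in KO and 3123 in wild type (adjusted p = 0.327) and the B cell gene Cd79a 89.1 in KO and 130 in wild type (adjusted p = 0.416). Of 8 tested erythroid and platelet markers 0 passed (median 0.02), with a summed signal of 9255 to 11301 in KO and 8689 to 10424 in wild type. Those with the smallest p were Ppbp, Ermap, Alas2 and Itga2b (adjusted p between 0.598 and 0.844). At an unadjusted p under 0.05 limma gave 3 of the 21 neutrophil genes, 2 of the 9 S100 genes, 1 of the 12 receptors and partners, 1 of the 9 acute-phase genes, 2 of the 5 relatives, 3 of the 15 macrophage markers, 2 of the 7 lymphocyte, mast cell and eosinophil markers, 0 of the 8 erythroid and platelet markers, 0 of the 11 brown fat markers, 1 of the 9 regulators of granulocyte development and 11 of the 17 glucocorticoid-responsive genes, beside 2385 of all 13102 tested genes. The part of these markers in the values of the granule and alarmin genes was not tested.

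The genes that respond to glucocorticoids, a list that also holds Lcn2 and Cebpd, were higher in 17 of 17 tested, of which 7 rose and 0 fell (median 0.88). Among all 13102 tested genes 6354 were higher, 149 rose and 93 fell. The risers of the list were Klf15, Fkbp5, Zbtb16, Per1, Cebpd, Tsc22d3 and Cdkn1a, with log2 differences between 1.05 and 2.38. Earlier results of these data had shown this list as higher, so its count is no independent evidence. Averaged over this list, the log2 value relative to wild type was 0.41 on KO replicate 2, against 0.77 to 1.25 on the other KO arrays. Over the 8 granule and alarmin genes that mean was 0.52 on KO replicate 2 and 0.57, 1.06 and 1.29 on KO replicates 1, 3 and 4, against -0.19 to 0.21 on the wild-type arrays.

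**Figure D4:**
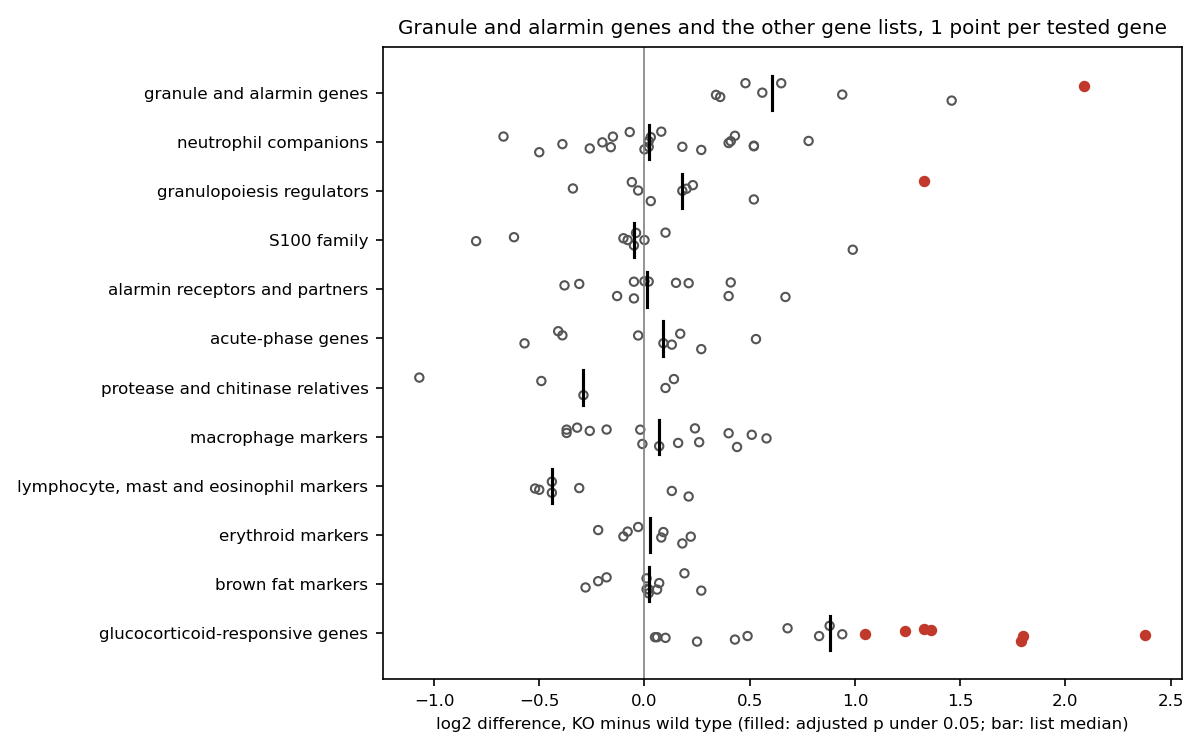
Log2 difference, KO minus wild type (horizontal axis), with 1 point per tested gene and a bar at the list median, filled where the adjusted p was under 0.05. All 8 granule and alarmin genes lie above 0 with a median of 0.60. The genes of the list of other neutrophil genes, not all particular to neutrophils, are spread around a median of 0.02.

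The genes whose log2 values over the 7 arrays were most like those of 4 granule and alarmin genes were also drawn from the 27022 tested probe sets. All arrays of both genotypes enter these likenesses. For S100a8 they were 4933416O17Rik (Pearson r = 0.964), Stfa2l1, a stefin gene of mouse neutrophils (0.96), and Homez (0.957). For Camp they were Mmut (0.979), Pnrc2 (0.976) and Yy1 (0.973), and for Lcn2 Aldh2 (0.984), Ccny (0.982) and Usp10 (0.982). For Chil3 they were Hectd3 (0.995), C330007P06Rik (0.992) and Crebrf (0.991), and of these 12 genes Crebrf alone was called changed (log2 difference 0.90, adjusted p = 0.0434).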

How the data were processed

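The deposited values are signal intensities on a linear scale, 1 per probe set and array, of biotin-labelled total RNA extracted with Trizol, per the labels' protocols. The software was GCOS 1.2, per the submitters' processing notes, and how it scaled the arrays is not stated there. The mean without the highest and lowest 2% of values was between 499.522 and 499.98 on every array. The arrays had thus been scaled to a common trimmed mean. Deposited medians were close, so the scaling was kept. No detection calls were used. Of 45101 probe sets, 64 controls were left out. The probe table gave 1 symbol for 34945, several for 932 and none for 9160, and symbols were updated through RefSeq gene identifiers.

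An offset of 30.6, the 20th percentile of all values, was added before taking log2. Probe sets with a mean log2 value under the 40th percentile were left out. The 4 KO arrays were set against the 3 wild-type arrays with limma 3.58.1 (R 4.3.3), using moderated variances with a trend on the mean, two-sided p-values and Benjamini-Hochberg adjustment over 27022 probe sets at a threshold of 0.05. The fit was tested on simulated data. Whether replicates are separate animals the labels do not say, so the p-values cover only the spread between these samples. Lists were counted by each gene's brightest tested probe set. Genes named from a list were its 4 with the smallest p and any that passed, and the 3 most alike for S100a8, Camp, Chil3 and Lcn2. Ucp1, Adgre1 and Csf1r, as defining markers, and the dim Gfi1, Prtn3, Ctsg, Cxcr2, Cd177 and Pglyrp1 were named outside this rule, after their values were seen. The genes, lists and motifs were chosen with earlier results of these data known.

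The alternatives were quantile normalization, median scaling, other offsets and filters, no trend, array weights, the replicate number or deposit block as a term, each block alone and leaving out each array. The interaction with the deposit block was added after seeing the data. In the fits without an array and within a block, the filter came from all arrays.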

Additional observations from a re-analysis of the deposited data

Results flagged for a closer look

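On 3 probe sets 1 KO array stood far from the other 3, where chance flags about 1 in 20 groups and 55 probe sets were looked at. Ltf read 568.4 on KO replicate 4, against 372.6 to 391.2 on the other KO arrays. Elane read 137.3 on KO replicate 1, against 25.1 to 40.3. The mast cell gene Cma1 read 1914.8 on KO replicate 1, against 2872.9 to 3034.8.

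On 4 of the 55, all KO arrays lay to opposite sides of wild type in the deposit blocks, below it in the first and above it in the second. The same split was seen in 3.47% of all tested probe sets. The genotype difference in the second block minus that in the first (log2) was 1.41 for S100a8 (limma interaction, unadjusted p = 0.00104), 1.37 for S100a9 (0.000526), 0.41 for S100a1 (0.0343) and 0.32 for Adipoq (0.101). The adjusted p was 1 for each. Wild type was represented by 1 array in the first block, and what separates the blocks was not tested.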

How the results depend on the processing

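The count of changed probe sets, 431 with all arrays, and the count among the 9 tested granule and alarmin probe sets, 1 with all arrays, depended on the variance model and on the arrays used. Over all probe sets the count was 235 with arrays scaled to the common median, 100 with no filter, 6 without the mean-variance trend, 1312 with array weights, 726 in the second deposit block alone and 0 in the first, and between 7 and 1986 when 1 array was left out. Among the granule and alarmin probe sets it was 0 with no filter, without the trend and in the first block, 4 with array weights (Camp, Ngp, Lcn2 and Chil3), 3 with the deposit block as a covariate, 7 in the second block, and between 0 and 4 when 1 array was left out. It was 4 without KO replicate 2 and 0 without any other array. With the replicate number as a block 2183 probe sets passed and 4 of the granule and alarmin ones. KO replicate 2 has no partner and drops out of that comparison. Deviations from the group means correlated at 0.06, 0.15 and 0.11 in same-numbered samples. Differently numbered samples ran from -0.17 to 0.18, the highest being wild-type replicate 1 with KO replicate 2. KO replicates 1, 3 and 4 each correlated most with the wild type of the same number. Whether the numbers mark pairs is therefore not settled, and they were not taken as pairs.

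The direction turned in the first block alone for S100a8 (-0.30), S100a9 (-0.32), Ager (-0.18), Adipoq (-0.08), Cstb (-0.06) and S100a1 (-0.14), in the second block alone for Elovl3 (0.23) and Itga2b (0.00), with quantile normalization for Adipoq (-0.02), and when 1 array was left out for Elovl3 (-0.71 to 0.13, above 0 without wild-type replicate 1) and Alas2 (-0.06 to 0.22, below 0 without wild-type replicate 3). None of these genes passed with all arrays. The cause was not tested. For Camp, Ngp, Ltf, Lcn2, Chil3 and Mpo the difference was above 0 in each alternative that tested them. Dim probe sets such as Elane, and differences between 4 and 3 arrays, limit what could be called.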
